A study of Mus musculus with 7 samples.

Results

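The chaperone and heat shock genes described here were chosen by name: the gene symbol was Tcp1, or began with Cct or Dnaja, Dnajb or Dnajc and a digit, or with Hspa, Hspb, Hspd, Hspe, Hsph or Hsp90. The rule used no measured value. It found 90 of the 36733 rows of the deposited tables, where each row is 1 transcription start site (TSS), and these rows belong to 76 of 17689 genes. For the 11 genes with several rows, the row with the lowest RefSeq accession number stood for the gene. The 76 genes were 9 subunits of the cytosolic chaperonin TRiC/CCT, 14 of the Hsp70 and Hsp110 family, 39 J proteins, 6 small heat shock proteins, 3 of the Hsp90 family, Hspd1 and Hspe1, and 3 genes that met the rule by name alone (Hspb11, Hspbp1 and Cct8l1).

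Binding was measured by ChIP-seq, which sequences the DNA that an antibody pulls down with a chromatin protein, in E14 mouse embryonic stem cells (ESCs) grown without feeders in serum and LIF. Tip60-H3F and Hdac6-H3F ESCs carry an epitope tag at the C-terminus of the endogenous protein and were precipitated with a Flag antibody, Tip60-H3F upon GFP KD or Hdac6 KD and Hdac6-H3F upon GFP KD or Tip60 KD. Untagged wild-type E14 ESCs, precipitated with the same antibody, measured its background, and endogenous p400 was precipitated upon GFP KD or Hdac6 KD with no control antibody. The knockdowns, by lentiviral shRNA with GFP as the control target, were taken 72 hr after infection. For the untagged library no knockdown is named and no time is given, so comparisons with it may also differ by shRNA infection. The library titled as Tip60 KD in Hdac6-H3F cells bears a genotype label that names Hdac6 KD, and it was grouped by its title. Each of the 7 conditions has 1 library, so p-values and intervals compare libraries and cover the counting of reads, not the spread between cultures.

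Tip60 is a lysine acetyltransferase and p400 a chromatin remodelling ATPase of the same complex, which binds near the TSSs of many active genes in ESCs. Hdac6 is a deacetylase best known in the cytoplasm, where tubulin and Hsp90 are among its substrates. Chaperones help proteins fold. The TRiC/CCT ring folds actin and tubulin, Hsp70 proteins bind unfolded stretches of protein with the help of J proteins, Hsp90 acts on kinases and receptors late in their folding, and Hspd1 with its lid Hspe1 forms the chaperonin of mitochondria. Many of these genes are active in every dividing cell, some (Hspa1a, Hspa1b, Hspb1) are strongly induced by heat through the factor Hsf1, and others are used in testis or muscle.

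The libraries were normalized to between 9226709 and 31375600 reads, with the Hdac6-H3F libraries the smallest and the p400 libraries the largest. Within 500 bp of the TSS, the 76 genes held a median of 12.5 to 29.5 reads in each library. At such counts a difference of a few reads at a single gene is within counting error. Levels below are normalized reads, which are reads within 500 bp of the TSS for every 10000000 reads of the library, and a gene was called different between 2 libraries where an exact conditional binomial test, adjusted over all rows with a read (Benjamini-Hochberg), gave an adjusted p under 0.05 and the levels differed at least 1.5-fold.

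Some of these promoters hold motifs known from the heat shock and ER stress responses. A heat shock element of 3 alternating units, GAANNTTCNNGAA on either strand, lay within 500 bp of the TSS at 11 of the 76 genes (14.5%), against 1.58% of all genes. The endoplasmic reticulum (ER) stress element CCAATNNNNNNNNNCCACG lay there at 3 genes (3.95%), against 0.153% of all genes. These letters were not found in the windows of Hspa1a, Hspa1b or Hspb1. Hsp90aa1 held the heat shock element only at its other row, −4 to 8 bp from that TSS, and is not among the 11. A match is a stretch of letters and was not tested as a binding site. The sequences below are from the mm9 genome, 5′ to 3′ on the strand of the gene, with the element in capitals. They show heat shock elements between Hspe1 and its divergent neighbour Hspd1 and before Hspa8, and ER stress elements before Hspa5, Hsp90b1 and Dnajc3.
Hspe1 (chr1:55144861-55144960, plus strand, between the TSSs of Hspd1 and Hspe1): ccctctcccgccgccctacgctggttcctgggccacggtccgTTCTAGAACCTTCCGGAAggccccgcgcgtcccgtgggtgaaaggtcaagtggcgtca
Hspa8 (chr9:40609126-40609325, plus strand): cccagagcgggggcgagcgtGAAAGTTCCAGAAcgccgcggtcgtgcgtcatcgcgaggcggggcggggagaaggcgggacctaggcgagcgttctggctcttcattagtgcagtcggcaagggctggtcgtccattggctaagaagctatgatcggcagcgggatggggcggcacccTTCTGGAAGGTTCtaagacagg
Hspa5 (chr2:34627462-34627611, plus strand): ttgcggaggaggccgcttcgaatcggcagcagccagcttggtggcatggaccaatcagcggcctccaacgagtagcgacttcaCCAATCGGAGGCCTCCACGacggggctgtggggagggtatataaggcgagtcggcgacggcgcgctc
Hsp90b1 (chr10:86168270-86168419, minus strand): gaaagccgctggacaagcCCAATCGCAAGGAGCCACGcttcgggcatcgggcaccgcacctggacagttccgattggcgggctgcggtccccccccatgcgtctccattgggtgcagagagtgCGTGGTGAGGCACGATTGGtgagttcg
Dnajc3 (chr14:119337029-119337088, plus strand): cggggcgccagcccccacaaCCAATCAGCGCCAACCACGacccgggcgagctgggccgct

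At 5 other members, 3 of them chaperonin subunits, the heat shock element lay just after the TSS or farther into the transcribed stretch, and each is shown with 8 bases on either side.
Cct4 (chr11:22890637-22890665, plus strand): gcgtcgctTTCTGGAAGGTTCgtggagga
Cct8 (chr16:87495853-87495881, minus strand): gggatggaGAAGGTTCTAGAAagggaagc
Tcp1 (chr17:13109670-13109698, plus strand): taagggaaGAATGTTCGAGAAtgcacacg
Hsph1 (chr5:150438855-150438883, minus strand): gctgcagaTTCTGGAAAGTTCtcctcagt
Dnaja1 (chr4:40669559-40669587, plus strand): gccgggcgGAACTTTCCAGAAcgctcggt

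The first question was where Tip60-p400 and Hdac6 lie at these genes. On average over the 76 genes, p400 upon GFP KD formed a peak that reached 0.485 ppm of coverage at 140 bp downstream of the TSS, against 0.175 ppm in the flanks at 1500 to 2000 bp. Hdac6-H3F reached 0.266 ppm at 100 bp, against 0.0854 ppm in its flanks. Tip60-H3F reached 0.323 ppm at 180 bp and had a shoulder upstream of the TSS, where the untagged library had its own maximum, 0.254 ppm at −460 bp. In a window downstream of the TSS (−100 to 300 bp), Tip60-H3F was 69.0% above untagged cells (95% interval 49.6 to 91.5%, counting error only). In a window of the same width upstream (−600 to −200 bp), it was 16.5% above them (3.76 to 31.0%). For Hdac6-H3F the same values were 148% (118 to 183%) downstream and 37.5% (20.4 to 56.8%) upstream. Over all rows, Tip60-H3F was 22.5% above untagged cells downstream and 10.6% upstream. Hdac6-H3F over all rows was less than 148% above them downstream and 46.1% upstream. Untagged coverage over the 76 genes was itself 23.8% lower downstream than upstream, which widened the contrasts above. Tip60-H3F coverage was 10.5% higher downstream, with 40 genes higher there and 36 upstream. Hdac6-H3F coverage was 37.4% higher downstream, against 36.7% over all rows.

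**Figure D1:**
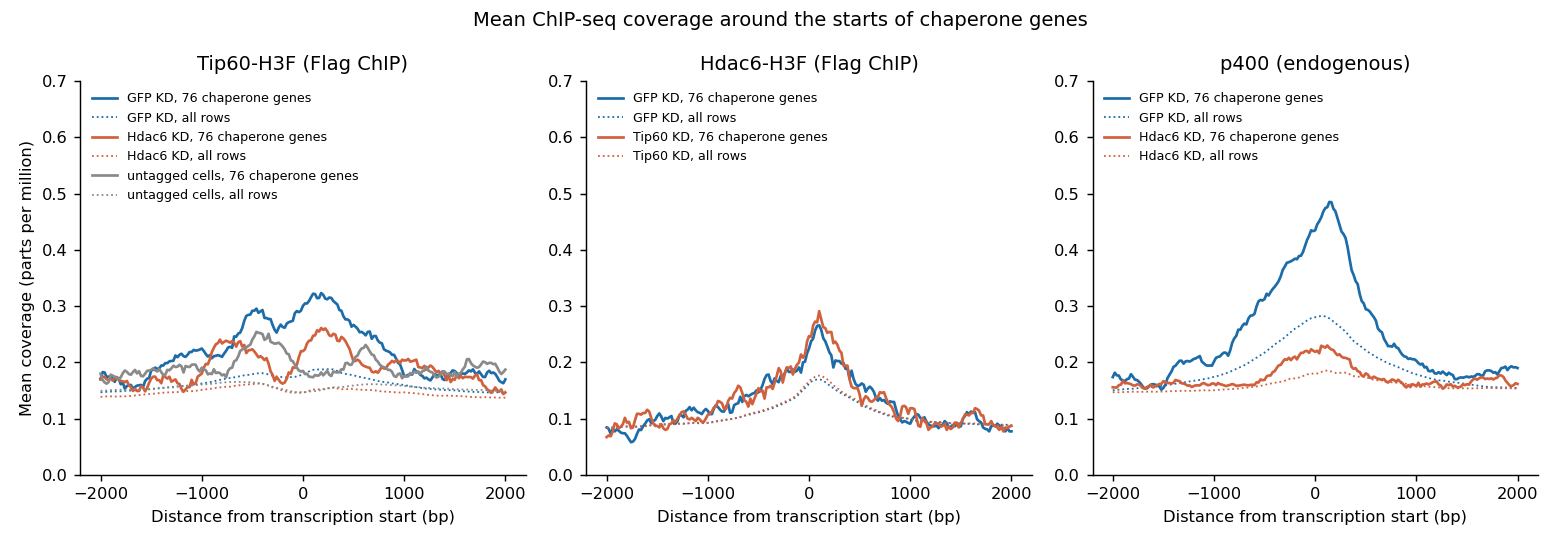
Mean coverage in ppm against the distance from the TSS in bp, for 1 library per line, over the 76 chaperone genes (solid) and over all rows (dotted). p400 upon GFP KD reached 0.485 ppm at 140 bp and upon Hdac6 KD 0.230 ppm at 120 bp; the Hdac6-H3F files count each read over about 148 bp and the others over about 299 bp, so heights are compared within a panel only.

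Most chaperonin genes were among the rows with the highest p400 levels. Their mean level upon GFP KD was 20.4 normalized reads, against 13.2 over the 76 genes and 8.53 over all rows, and 8 of the 9 were in the top 10% of all rows for p400. Of the 76 genes, 25 were in that top 10% (32.9%). Hspa9, the Hsp70 of mitochondria, had the highest level at 45.0, followed by Cct7 at 29.5, Hspa5, the Hsp70 of the ER, at 25, and Cct6a at 24.5. The counting intervals of Cct7, Hspa5 and Cct6a overlapped. At the other end were Hspa4l at 3.25, Dnajc5b at 4.23, Dnajc2 at 4.55, Hspa1b at 5.47 and Hspa1a at 5.84. The rows of Hspa4l and Dnajc2 lie 11869 and 5884 bp from the nearest annotated start of any gene on their strand. Their windows may thus miss the promoters of these genes. Dnajc2 has another row, 22382 bp away, with 28 p400 reads upon GFP KD against 12 at the row used.

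Upon Hdac6 KD, p400 was lower at 74 of the 76 genes, as it was at 74.2% of all rows tested. Of the 76, 22 (28.9%) were called lower and 0 higher, against 11.6% and 0.214% of all rows. The mean over the 76 genes was 13.2 upon GFP KD and 6.85 upon Hdac6 KD, 48.0% lower (44.7 to 51.2%, counting error only), while the mean over all rows was 31.4% lower. With no correction for multiple tests, 35 of the genes had p under 0.05, as did 5865 of the 22471 rows tested. The genes called lower were the 9 chaperonin genes, Hspa4, Hspa5, Hspa8, Hspa9, Hspa14, Hsph1, Hspd1, Hsp90ab1, Dnaja1, Dnajb12, Dnajc1, Dnajc5 and Dnajc8.

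p400 fell at each of the 9 chaperonin genes. Cct7, whose TSS is at chr6:85402067, went from 75 reads to 27, or from 29.5 to 8.47 normalized, a fall of 71.2% (54.4 to 82.0%, adjusted p = 2.26e-06, exact binomial test). Cct6a (chr5:130293261) went from 24.5 to 6.29, a fall of 74.3%, with an adjusted p of 6.42e-06 in the exact test. Cct2 (chr10:116500870) had the largest fall of the 76 genes, from 31 reads to 7, or from 12.2 to 2.33 normalized (81%, with an interval of 57.8 to 93.2% and an adjusted p of 0.000492 in the exact test). The other subunits started between 14.5 and 22.9 and ended between 6.10 and 9.83. Cct3 went from 22.9 to 9.83, Cct4 from 21.5 to 8.21 and Tcp1, the founding subunit, from 20.8 to 8.81. Cct5 went from 18.9 to 6.27, Cct8 from 18.6 to 6.10, and Cct6b, the copy of Cct6 best known from testis, from 14.5 to 6.78, which was the call nearest to the threshold (adjusted p = 0.0453, exact test). No Hdac6 KD level of a chaperonin gene reached the lowest GFP KD level among them, 12.2 at Cct2. Over the 9 genes the mean went from 20.4 to 7.01, 65.6% lower (59.3 to 71.0%). In the narrower windows used above, which hold fewer reads, 3 of the 9 were called downstream of the TSS, where the mean was 72.6% lower, and 0 upstream, where it was 55.7% lower. Of all rows, 1.52% and 0.429% were called lower in these windows.

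**Figure D2:**
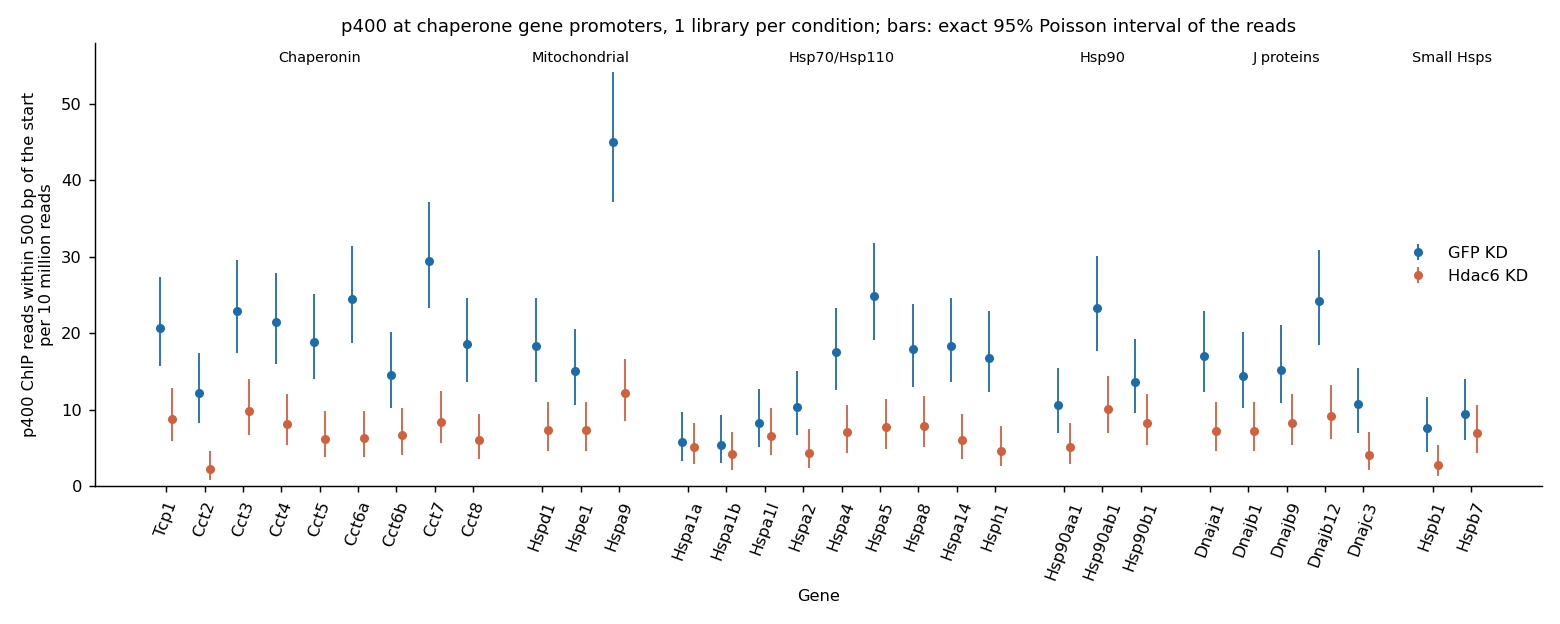
p400 reads within 500 bp of the TSS per 10000000 reads (vertical axis) for named chaperone genes by family (horizontal axis), upon GFP KD (blue) and Hdac6 KD (orange), 1 library each; bars are exact 95% Poisson intervals. All 9 chaperonin genes are lower upon Hdac6 KD, Hspa9 goes from 45.0 to 12.2, and Hspa1a and Hspa1b are low in both libraries.

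Rows with much p400 upon GFP KD were called lower most often. In the top 10% of all rows by that level, 68.9% were called lower, as were 19 of the 25 chaperone genes there (76%) and 8 of 8 chaperonin genes. Between the 75th and the 90th percentile the shares were 22.8% of all rows and 3 of 15 chaperone genes. Below the 75th percentile 0 of 36 chaperone genes were called. Few of all rows were called there, 4.26% between the 50th and the 75th percentile and 0.247% below the 50th. The level upon GFP KD is part of the comparison, so level and fall share a library here.

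**Figure D3:**
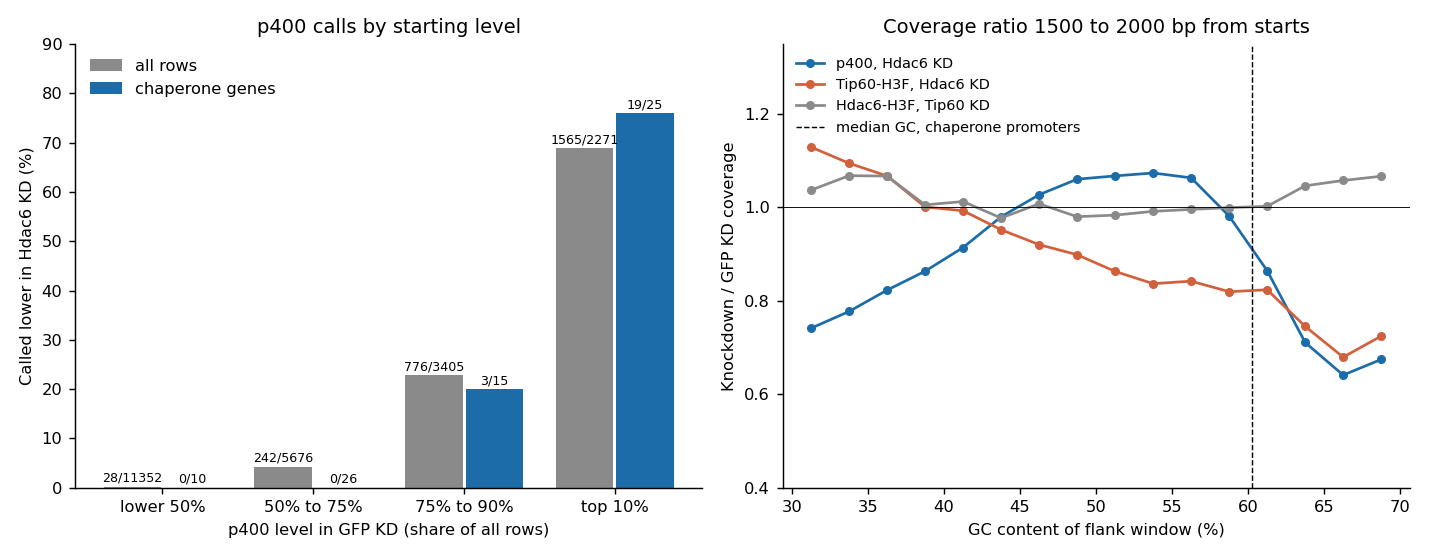
Left, share of rows called lower for p400 upon Hdac6 KD (vertical axis, percent) by p400 level upon GFP KD, for all rows (grey) and chaperone genes (blue), with counts above the bars; 68.9% of all rows and 76% of chaperone genes were called in the top 10%. Right, ratio of knockdown to GFP KD coverage at 1500 to 2000 bp from the TSS against the GC content of the window, with the median GC content of chaperone promoters, 60.2%, dashed; at 60 to 62.5% GC the ratio was 0.824 for Tip60-H3F and 0.865 for p400.

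The mitochondrial chaperones had the highest Tip60 levels and large falls of p400. Hspa9 had 37.1 normalized reads in Tip60-H3F upon GFP KD, 17.8 upon Hdac6 KD and 9.43 in untagged cells, 20.7 and 26.6 in Hdac6-H3F upon GFP KD and Tip60 KD, and 45.0 and 12.2 for p400 upon GFP KD and Hdac6 KD. Tip60 was thus well above the background at this gene (3.93-fold, interval 2.40 to 6.56, adjusted p = 9.47e-07, exact test), and p400 fell by 72.9% (adjusted p = 1.25e-10, exact test). Hspd1, the mitochondrial Hsp60, had in the same order 19.1, 11.6 and 5.41 for Tip60-H3F and untagged cells, 24.4 and 18.5 for Hdac6-H3F, and 18.4 and 7.42 for p400. Tip60 and Hdac6 were called above untagged cells at Hspd1, and p400 fell by 59.6% (adjusted p = 0.00619, exact test). Its partner Hspe1 starts 472 bp away on the opposite strand, at the other side of the heat shock elements printed above, so their windows overlap and share reads. There p400 went from 15.1 to 7.44, which missed the threshold (adjusted p = 0.0626, exact test). Over the 5 mitochondrial chaperone genes in the files (these and Dnajc15 and Dnajc19), p400 was 59.0% lower (49.0 to 67.0%). Of the 5, 2 were called lower, against 11.6% of all rows. Hspa9 held 114 of their 253 p400 reads upon GFP KD, and the median change of the 5 genes was −50.8%. Reads that Hspd1 and Hspe1 share were counted for both, so intervals of means that include both genes are too narrow. Dnaja3 was not analysed here.

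In the Hsp70 and Hsp110 family, 6 of 14 genes were called lower for p400, against 11.6% of all rows. Of the 14, 6 were in the top 10% of all rows for p400 upon GFP KD, where 68.9% of rows were called lower. Hspa5 (BiP), which carries the ER stress element printed above, went from 63 reads to 24, or from 25 to 7.74 normalized, a fall of 69.0% (50.1 to 81.6%, adjusted p = 4.69e-05, exact test). Hsph1, an Hsp110 that exchanges the nucleotide of Hsp70, went from 16.8 to 4.69 (72.1%), and Hspa14, an Hsp70 that works at the ribosome, from 18.4 to 6.10 (66.8%). Hspa8, the constitutive Hsp70 of the cytosol, went from 18.0 to 7.87 (56.2%), and Hspa4, another Hsp110, from 17.6 to 7.17 (59.2%). Hspa2, the Hsp70 of spermatocytes, had 10.4 and 4.42 and was not called (adjusted p = 0.0900, exact test). Values of the stress-induced copies were low in both libraries. Hspa1a had 5.84 upon GFP KD and 5.12 upon Hdac6 KD, Hspa1b had 5.47 and 4.18, and Hspa1l, a testis form beside Hspa1a, had 8.35 and 6.57, with 13 to 21 reads in each library. At that depth a fall of 60.2% at Hspa1a and of 67.6% at Hspa1b lies within the counting interval. The 2 copies are nearly identical before the TSS, as the sequences show, with capitals at the only base that differs in 150.
Hspa1a (chr17:35109102-35109251, minus strand): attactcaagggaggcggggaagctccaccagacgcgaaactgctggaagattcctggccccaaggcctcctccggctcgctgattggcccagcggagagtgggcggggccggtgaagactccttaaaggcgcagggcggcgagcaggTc
Hspa1b (chr17:35096184-35096333, minus strand): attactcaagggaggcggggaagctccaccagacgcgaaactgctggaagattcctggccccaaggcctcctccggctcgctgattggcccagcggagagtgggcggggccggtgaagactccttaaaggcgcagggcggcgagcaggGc
Reads that matched several places had been assigned to 1 of them at random, so reads from stretches that Hspa1a and Hspa1b share could not be assigned to either gene. Hspa1a and Hspa1l start 547 bp apart and share part of their windows.

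Of the Hsp90 genes, 1 of 3 was called lower for p400, against 11.6% of all rows. Hsp90ab1, the constitutive cytosolic form, went from 23.3 to 10.1 (56.6%, adjusted p = 0.00481, exact test). The heat-inducible Hsp90aa1 had 10.7 and 5.23 (adjusted p = 0.125, exact test) and the ER form Hsp90b1 13.6 and 8.28 (adjusted p = 0.219, exact test). The result for Hsp90aa1 is that of the row used, with 27 and 16 p400 reads. Its other row, 623 bp away, had 40 and 20. Over the 7 ER chaperone genes in the files the mean was 53.5% lower (42.9 to 62.4%), and Hspa5 and Dnajc1 were called. Dnajc10 was not analysed here.

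The J proteins, which stimulate the ATPase of Hsp70, followed the background more closely. Of 39, 5 were called lower (Dnaja1, Dnajb12, Dnajc1, Dnajc5 and Dnajc8), against 11.6% of all rows. The mean over the 39 was 39.8% lower (34.2 to 45.0%), between that of all chaperone genes and that of all rows. Dnajb12, a J protein of the ER membrane, had the highest level among them and went from 24.3 to 9.17 (62.2%, adjusted p = 0.000919, exact test). Dnaja1, a main partner of Hspa8, went from 17.1 to 7.21 (57.7%). Dnajb1, induced by heat, had 14.5 and 7.27 (adjusted p = 0.0769, exact test), Dnajb9 of the ER 15.3 and 8.34 (adjusted p = 0.102, exact test), and Dnajc3, a J protein of the ER lumen, 10.8 and 4.14 (adjusted p = 0.0501, exact test).

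None of the 6 small heat shock proteins was called for p400 (exact test), where 11.6% of all rows were called lower, and 0 of them had more p400 upon Hdac6 KD. Their mean was 30.7% lower (11.1 to 45.8%), close to that of all rows. Hspb1 (Hsp27) had 19 and 9 reads, or 7.61 and 2.75 normalized (unadjusted p = 0.0226, adjusted p = 0.117, exact test). Hspb9 was not analysed here. Over the 14 members known for use in particular tissues such as testis and muscle, the mean was 34.9% lower (23.8 to 44.4%) and Cct6b alone was called. Dnajb7 and Hspa4l were the 2 genes with higher values upon Hdac6 KD, 7.43 and 8.15 for the former and 3.25 and 4.35 for the latter, neither called. Over the 10 genes listed as heat-inducible, among them the constitutive Hspa8, the mean was 54.3% lower (45.1 to 62.0%). Hspa8, Hspd1, Hsph1 and Dnaja1 were called, against 11.6% of all rows, while Hspa1a, Hspa1b, Hspb1, Dnajb1, Hsp90aa1 and Hspe1 were not. Of the 10, 6 were in the top 10% of all rows for p400 upon GFP KD, where 68.9% of rows were called lower. Values were 12.4% lower at Hspa1a and 23.6% lower at Hspa1b.

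**Figure D4:**
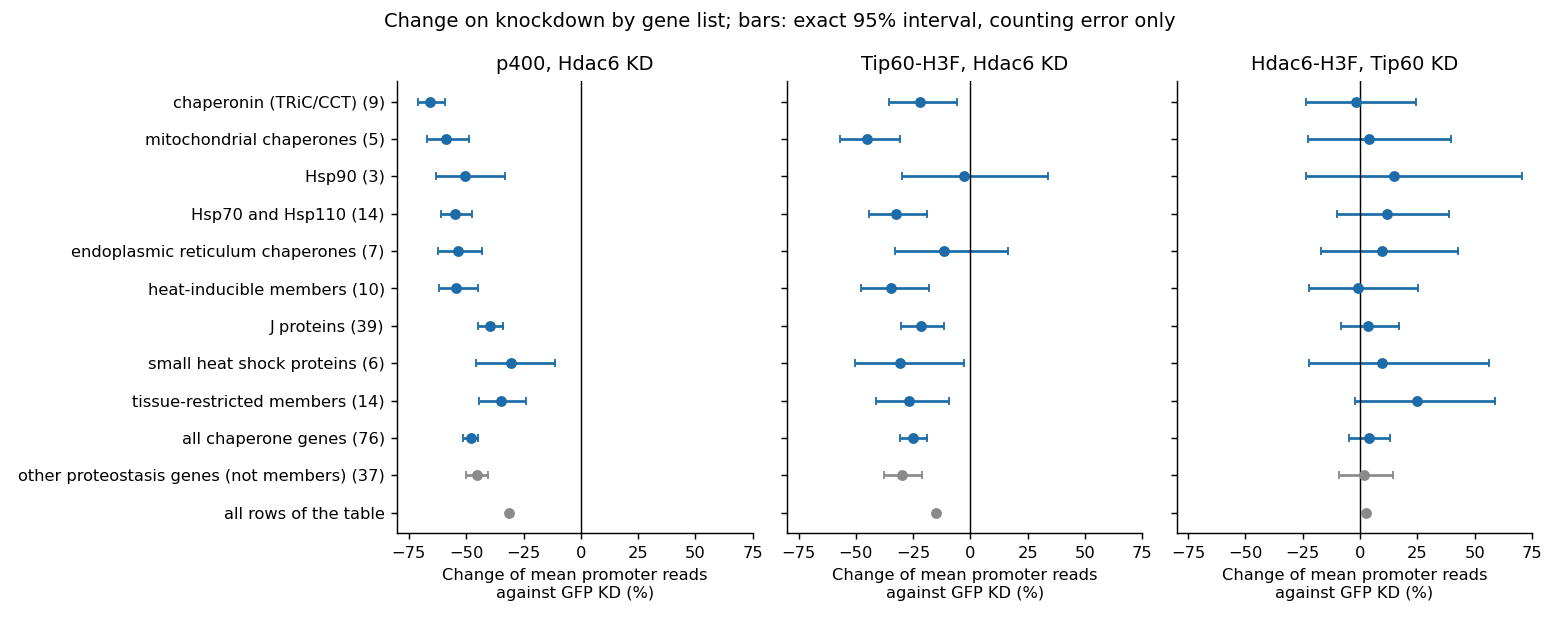
Change of the mean promoter reads against GFP KD (horizontal axis, percent) for lists of chaperone genes (blue, number of genes in brackets), for other proteostasis genes and for all rows (grey), in each of the knockdown comparisons; bars are exact 95% intervals of the summed reads, counting error only. For p400 the chaperonin genes are lowest at −65.6% and all rows stand at −31.4%, while for Hdac6-H3F every interval spans 0 but that of all rows.

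The CpG content of the promoters went along with these values. Of the 76 genes, 54 (71.1%) had a ratio of observed to expected CpG over 0.6, against 36.6% of all rows, and these include each chaperonin gene. All 22 genes called lower for p400 were among the 54 (40.7%), and 0 of the other 22 genes was called. In all rows with p400 values, 22.4% of the CpG-rich and 2.32% of the other rows were called. The mean p400 level was 14.7 upon GFP KD and 6.85 upon Hdac6 KD at the 54 genes, and 9.52 and 6.87 at the other 22. After Hdac6 KD the CpG-rich and CpG-poor genes therefore stood at about the same mean level. Cct2, a CpG-rich gene, had the largest p400 fall. Hspb7, a CpG-poor gene of heart muscle, had 24 and 22 p400 reads upon GFP KD and Hdac6 KD. When normalized, its level was 26.1% lower (−37.7 to 60.5%), against 31.4% lower for the mean over all rows. The 150 bases before the TSS of each gene show the contrast in CpG content, with each CG in capitals (16 and 4).
Cct2 (chr10:116500871-116501020, minus strand): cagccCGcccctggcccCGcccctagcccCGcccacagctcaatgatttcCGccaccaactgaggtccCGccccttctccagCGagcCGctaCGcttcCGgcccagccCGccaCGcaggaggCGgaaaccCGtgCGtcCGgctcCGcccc
Hspb7 (chr4:140976544-140976693, plus strand): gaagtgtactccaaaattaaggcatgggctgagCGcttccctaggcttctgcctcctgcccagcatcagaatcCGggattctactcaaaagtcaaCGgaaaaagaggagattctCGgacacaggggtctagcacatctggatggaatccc

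The median GC content of the 76 promoters was 60.2%, against 52.9% for all rows. Away from the TSS, at 1500 to 2000 bp, the ratio of the p400 libraries (Hdac6 KD over GFP KD) also moved with GC content, from 0.742 at 30 to 32.5% GC to 1.07 at 50 to 52.5%, 0.865 at 60 to 62.5% and 0.641 at 65 to 67.5%. When each window upon Hdac6 KD was divided by that ratio for its GC content, p400 was 39.0% lower over the 76 genes, 63.7% lower over the chaperonin genes, 34.0% lower over the heat-inducible genes and 22.8% lower over all rows. With totals over all rows set equal, p400 was 24.2% lower over the 76 genes and 49.8% lower over the chaperonin genes, and 5 of the 76 genes (3 of them chaperonin genes) were called, against 0.903% of all rows.

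Tip60-H3F was called above untagged cells at 7 of the 76 genes (9.21%) and below them at 0, against 1.14% and 0.0693% of all rows. With totals over all rows set equal, 2 of the 76 genes were called higher, against 0.535% of all rows. The 7 were Hspa9, Cct4, Hspd1, Hspe1, Cct7, Dnajb12 and Dnaja2, of which Hspd1 and Hspe1 share reads. Of these, 5 were also among the 22 genes called lower for p400 upon Hdac6 KD (71.4% of the 7 and 22.7% of the 22). Of all rows, 11.6% were called lower for p400, as were 68.9% of rows in the top 10% by p400 level upon GFP KD. The overlap was not worked out over all rows, so it describes these genes only. Tip60-H3F at Cct4 was 22.8 normalized reads against 6.91 in untagged cells (3.30-fold, interval 1.86 to 6.26, adjusted p = 0.00330, exact test), and at Cct7 it was 23.4 against 8.44 (2.77-fold, adjusted p = 0.0153, exact test). At Dnaja2, a cytosolic partner of Hspa8, it was 12.9 against 3.41 (adjusted p = 0.0430, exact test), with a p400 level of 8.91. Hsp90ab1, at 20.1 against 7.66, fell just short (adjusted p = 0.0503, exact test). Cct2 and Hspbp1 had ratios of 3.83 and 3.98 but 6 reads each in untagged cells, and neither was called.

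The mean of Tip60-H3F over the 76 genes was 9.71, against 6.85 in untagged cells, 41.7% higher (31.3 to 52.8%), and over all rows it was 17.1% higher. Over all genes with 1 row each it was 20.6% higher. With totals over all rows set equal, the excess over the 76 genes was 21.0% (12.2 to 30.5%). The mitochondrial chaperones had the largest mean excess, 3.09-fold (2.36 to 4.06), followed by Hsp90 at 2.05-fold (1.40 to 2.97) and the chaperonin genes at 2.03-fold (1.65 to 2.49), and these intervals overlap. For the mitochondrial chaperones, reads shared by Hspd1 and Hspe1 were counted for both genes, so the interval is too narrow. The small heat shock proteins, at 1.01-fold (0.764 to 1.36), and the tissue-restricted genes, at 0.973-fold (0.807 to 1.17), could not be told from the background. Untagged cells themselves had high values at some members. Of the 76 genes, 23 (30.3%) were in the top 10% of all rows for the untagged library, with 39 reads at Dnajb13, 31 at Dnajc18 and 29 at Cct8.

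**Figure D5:**
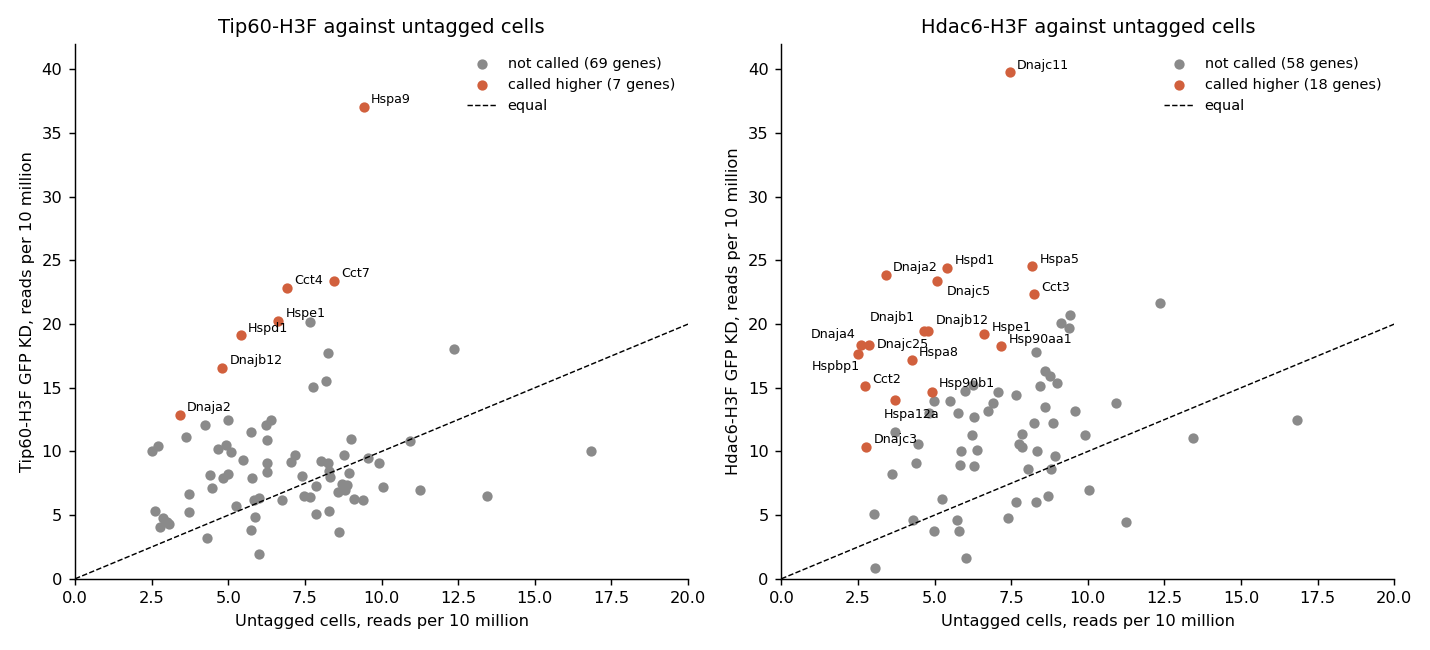
Reads within 500 bp of the TSS per 10000000 reads in Tip60-H3F (left) and Hdac6-H3F (right) cells upon GFP KD against the untagged cells, 1 point per chaperone gene; genes called higher are orange and named, and the dashed line marks equal values. Tip60-H3F was called at 7 genes, highest at Hspa9 with 37.1, and Hdac6-H3F at 18 genes, highest at Dnajc11 with 39.8.

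Hdac6-H3F was called above untagged cells at 18 of the 76 genes (23.7%), near the 20.5% of all rows called higher, and below them at 0, against 0.324% of all rows. The mean over the 76 genes was 13.1 against 6.85, 1.92-fold (1.77 to 2.08), and over all rows 1.84-fold. Over all genes with 1 row each, as for the members, it was 1.95-fold. The highest Hdac6 level was at Dnajc11, a J protein of the mitochondrial inner membrane organizing system, with 46 reads and a level of 39.8 against 7.46 in untagged cells (5.33-fold, interval 3.04 to 10.1, adjusted p = 1.80e-07, exact test). Tip60-H3F at Dnajc11 was 6.52, below the untagged value, and p400 upon GFP KD was 9.20. Dnaja2 had 23.8 (6.99-fold), Dnaja4 18.4 (7.06-fold) and Hspbp1, an exchange factor of Hsp70, 17.7 (7.03-fold), the largest ratios among the 76 genes. All 3 genes with an ER stress element were called (Hspa5 at 24.5, Hsp90b1 at 14.7 and Dnajc3 at 10.4), as were Hspa8, Hspd1, Hspe1, Hsp90aa1, Dnajb1, Dnajb12, Dnajc5, Dnajc25, Hspa12a, Cct2 and Cct3. The 3 genes with the element had an untagged mean of 5.29, against 6.92 at the other 73, and Dnajc3 had 12 reads against 6. Tip60-H3F was called above untagged cells at 0 of these 3, and a link to the element was not tested. Values were below untagged cells at 14 genes, with the lowest ratios among genes with 10 or more reads at Hspa4l (1.63 against 6.02), Dnajb4 (4.42 against 11.2) and Hspb7 (3.72 against 5.78), none called. The other row of Dnajb4, 16326 bp away, had the opposite direction, with 14.5 against 4.42, and was called higher. With totals over all rows set equal, the mean over the 76 genes was 4.14% above untagged cells (−4.05 to 12.9%), and 2 of the 76 genes were called, against 1.32% of all rows.

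The Flag libraries gave the following levels at the chaperonin genes. Cct7 had for Tip60-H3F 23.4 upon GFP KD, 14.1 upon Hdac6 KD and 8.44 in untagged cells, and for Hdac6-H3F 15.1 and 12.7 upon GFP KD and Tip60 KD. In the same order, Cct4 had 22.8, 18.7 and 6.91, then 13.8 and 14.9, and Cct3 17.7, 13.6 and 8.24, then 22.3 and 13.6. At these 3 genes Tip60-H3F was above untagged cells in both libraries. Cct8 had 18.0, 11.7 and 12.3, then 21.6 and 25.1, with the highest untagged level of the 9. Cct2 had 10.4, 11.1 and 2.72, then 15.1 and 11.2, and Cct6a 11.1, 4.50 and 3.61, then 8.26 and 15.2. Tip60-H3F upon Hdac6 KD was about the GFP KD level at Cct2 and lower at Cct6a, with neither called. Cct5 had 9.31, 13.2 and 5.49, then 14.0 and 7.88, and Cct6b 9.16, 6.25 and 7.06, then 14.7 and 14.6. Tcp1 had 9.13, 8.97 and 9.92, then 11.3 and 18.4, and was the only chaperonin gene at which Tip60-H3F upon GFP KD was below untagged cells, while Hdac6-H3F upon GFP KD was above them at all 9.

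In the same order of libraries, the ER chaperone Hspa5 had 15.6, 12.7 and 8.18, then 24.5 and 18.8, and Hsp90b1 10.5, 17.6 and 4.92, then 14.7 and 14.6. Hspe1 had 20.3, 9.50 and 6.62, then 19.2 and 19.1. Hdac6-H3F was called above untagged cells at each of these genes. The cytosolic Hspa8 had 12.0, 9.57 and 4.25, then 17.2 and 17.8, Hspa4 15.1, 8.97 and 7.75, then 10.6 and 18.7 and Hsph1 7.12, 4.92 and 4.45, then 10.6 and 10.2. Hsp90ab1 had 20.1, 10.6 and 7.66, then 14.4 and 21.5, and Hsp90aa1 9.75, 11 and 7.17, then 18.3 and 18.4. Of these 5 genes, Hspa8 and Hsp90aa1 were called for Hdac6-H3F over untagged cells and none for Tip60-H3F. The J proteins Dnaja1, Dnajb1 and Dnajb9 had 11, 8.13 and 8.99, then 15.4 and 21.0 for the first, 10.2, 1.92 and 4.66, then 19.4 and 11.7 for the next and 6.30, 6.14 and 9.11, then 20.1 and 15.9 for the last. Dnajc3 had 4.05, 0.175 and 2.78, then 10.4 and 12.0, where the Tip60-H3F value upon Hdac6 KD is signal of less than 1 read. No call was made in any comparison at the stress-induced copies, their neighbour, the spermatocyte gene Hspa2 or Hspb1. Hspa1a had 4.48, 1.47 and 3.01, then 5.12 and 3.21, Hspa1b 3.83, 6.63 and 5.73, then 4.65 and 7.30 and Hspa1l 6.21, 5.62 and 5.84, then 8.96 and 7. Hspa2 had 8.40, 4.15 and 6.28, then 12.7 and 19.6, and Hspb1 5.71, 3.04 and 5.23, then 6.28 and 11.8. The lowest ratios of Tip60-H3F to untagged cells were at Hspa4l (1.94 and 6.02), Dnajb5 (3.64 and 8.62) and Dnajc18 (6.49 and 13.4), none called.

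Upon Hdac6 KD, Tip60-H3F was called different at 0 of the 76 genes in the exact test, against 0.352% of all rows called lower and 0.0388% called higher. An unadjusted p under 0.05 was found at 11 of the 76 genes and at 4018 of the 36043 rows tested. The values were lower at 57 genes (75%), as they were at 62.0% of all rows tested. The mean over the 76 genes went from 9.71 to 7.26, 25.3% lower (19.2 to 30.9%), and over all rows it was 15.2% lower. With totals over all rows set equal it was 11.9% lower (4.65 to 18.5%). The mean of 7.26 upon Hdac6 KD was close to the 6.85 of untagged cells, so that with the untagged signal subtracted from both libraries it was 85.9% lower. Over all rows the mean upon Hdac6 KD, 5.11, was below the 5.15 of untagged cells, and the subtracted value changed by −104%. The mitochondrial chaperones had the largest difference, from 20.2 to 11.1 (45.1% lower, 30.7 to 57.1%), an interval that again counts reads shared by Hspd1 and Hspe1 for both genes. Hspa9 went from 37.1 to 17.8, with 79 and 34 reads, and came nearest to the threshold (adjusted p = 0.0607, exact test), and Hspe1 had 20.3 and 9.50 (adjusted p = 0.211, exact test). The largest fall in value among genes with 10 or more reads was at Dnajb1, from 22 reads to 4, or from 10.2 to 1.92 normalized (adjusted p = 0.123, exact test). Its level in untagged cells was 4.66. Dnajc3 had 9 reads and 0, Hspb11 14 and 4, and Hspa1a 10 and 3. Values were higher upon Hdac6 KD at Hsp90b1 (22 and 34 reads), Hspa1b (8 and 13) and Hspa4l (4 and 12), and Cct5 had 20 and 25.

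The Tip60-H3F libraries also differed with GC content. In the flanks, the ratio of the Tip60-H3F libraries went from 1.13 at 30 to 32.5% GC down to 0.824 at 60 to 62.5%. After the same GC correction as above, Tip60-H3F was 6.89% lower over the 76 genes, 27.1% lower over the mitochondrial chaperones, 5.80% lower over the chaperonin genes and 0.625% higher over all rows. Over the Hsp90 genes it went from 2.83% lower to 21.5% higher, and over the ER chaperones from 11.8% lower to 13.4% higher. The part of GC content in the values of single genes was not tested.

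Hdac6-H3F upon Tip60 KD was called different at 0 of the 76 genes in the exact test, as it was at 0% of all rows in either direction. An unadjusted p under 0.05 was found at 919 of the 35837 rows tested and at 1 of the 76 genes. That gene was Dnajc1, with 10 reads upon GFP KD and 21 upon Tip60 KD (8.61 and 22.9 normalized, unadjusted p = 0.0146, exact test). The mean over the 76 genes was 13.1 and 13.6, a difference of 3.83% with an interval of −4.76 to 13.3%, and over all rows it was 2.36% higher. A mean fall of over 4.76% or a mean rise of over 13.3% lies outside that interval. For single genes the depth allows little: at Dnajc11, with 39.8 and 27.4, the interval ran from 59.8% lower to 13.4% higher. Chaperonin genes had means of 15.1 and 14.8, and heat-inducible genes 14.1 and 13.9. The largest falls in value among genes with 10 or more reads in both libraries together were at Hspb8 (21 and 8 reads), Cct5 (16 and 7) and Dnajb5 (19 and 8), and the other large rises at Hspb7 (4 and 8) and Dnajc7 (6 and 8).

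The 11 genes with a heat shock element at the row used had somewhat higher means than the other 65 for p400 upon GFP KD (17.1 and 12.5), Tip60-H3F (12.7 and 9.20) and Hdac6-H3F (16.7 and 12.5), and also in untagged cells (7.44 and 6.76). Of the 11, 7 were called lower for p400 upon Hdac6 KD, against 15 of the 65 and 11.6% of all rows. Rows with more p400 upon GFP KD were called more often, and the share among all rows with the element was not worked out. These means and counts are a description. The chaperonin genes Cct4, Cct8 and Tcp1 and the pair Hspd1 and Hspe1, which share their elements, make up 5 of the 11.

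The position of the row mattered where a gene had several. Dnajb4 has rows 16326 bp apart, and its p400 reads upon GFP KD were 15 at 1 row and 42 at the other. For Hsp90aa1, with rows 623 bp apart, they were 27 and 40, and for Hspa5, with rows 3 bp apart, 63 in both. Over all 90 rows the p400 mean was 47.8% lower upon Hdac6 KD and 26 rows (28.9%) were called, against 11.6% of all rows of the tables.

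Of 37 other proteostasis genes that are not members (co-chaperones, prefoldin subunits, ER lectins and mitochondrial proteases), 11 were called lower for p400 upon Hdac6 KD and 0 higher, a share near that of the chaperone genes. Of all rows, 11.6% were called lower. Of the 37, 12 were in the top 10% of all rows for p400 upon GFP KD. Their p400 mean was 45.3% lower (40.3 to 50.0%) and their Tip60-H3F mean 30.0% lower (21.3 to 37.8%). Tip60-H3F was 1.62-fold (1.45 to 1.82) and Hdac6-H3F 2.62-fold (2.33 to 2.95) the untagged level at these genes. Bag6, Clpb and Pdia6 were not analysed here.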

How the data were processed

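The authors collapsed single-end reads by sequence while keeping their occurrences, mapped them to mm9 with Bowtie (version not given in the sources used here) with up to 1 mismatch, placed multiply mapping reads at a random match, extended them, removed simple repeats and deposited the coverage signal in ppm every 20 bp from −2000 to 2000 bp of each TSS. The submitters' processing notes also name CASAVA 1.8.2. All 7 files were used. The p400 files hold the 22704 rows with a RefSeq identifier and were joined by identifier and file order.

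Every signal value is a whole multiple of the value of 1 read (tolerance 0.01), which gives the normalizing reads. To count reads in a window, its summed signal was divided by that value and by the length over which a lone read adds signal, about 299 bp, or 148 bp in the Hdac6-H3F files (150 bp is stated). Copies from PCR count as reads. The exact test, fitted on all rows, and its intervals were computed with Python 3.11.15, numpy 2.4.6 and scipy 1.17.1 and tested on simulated data. Figures were drawn with matplotlib 3.10.9. Named genes were a fixed list of 28 family members, in each comparison the genes called (the 12 with the lowest adjusted p where there were more), and the 3 largest rises and falls among genes with 10 or more reads. Other genes named at the ends of an order or count were chosen after their values were seen. The members, the gene lists and the tests were chosen with earlier results of these data known. The alternatives were other windows, scalings, thresholds and row sets and corrections for flank signal, untagged signal and GC content.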

Additional observations from a re-analysis of the deposited data

How the results depend on the processing

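The limits are the single library per condition, the low counts per gene and the scaling. No paired analysis was possible because each condition has 1 sample. No mean over the 76 genes changed direction under the alternatives run, apart from that of Hdac6-H3F upon Tip60 KD, whose interval spans 0. Of the 50 alternative means, 30 stayed within the counting interval, and of the 50 alternative counts, 37 within 1.5 times the number given. Many of these 37 set 0 against 0, for Tip60-H3F upon Hdac6 KD and Hdac6-H3F upon Tip60 KD. Stricter thresholds cannot raise a count of 0, so these say little about how stable the counts are. For p400 upon Hdac6 KD the mean moved to −42.4% (−1000 to 1000 bp), −24.2% (equal totals over all rows), −81.2% (flank signal subtracted) and −39.0% (GC correction), and the genes called to 9 (−250 to 250 bp, 3.60% of all rows called), 35 (−1000 to 1000 bp, 18.0%), 4 (downstream window, 1.52%), 2 (upstream window, 0.429%) and 5 (equal totals, 0.903%). For Tip60-H3F upon Hdac6 KD it moved to −18.7% (−1000 to 1000 bp), −11.9% (equal totals), −54.1% (flank subtracted), −6.89% (GC correction) and −85.9% (untagged subtracted), with 1 gene called at −1000 to 1000 bp (1.27% of all rows). For Tip60-H3F against untagged cells it moved to 30.0% (−1000 to 1000 bp), 69.0% (downstream), 16.5% (upstream), 21.0% (equal totals) and 481% (flank subtracted), and the genes called to 2 (−250 to 250 bp, 0.323% of all rows), 1 (downstream, 0.249%), 0 (upstream, 0.0922%), 2 (equal totals, 0.535%) and 3 (adjusted p under 0.01, 0.577%). For Hdac6-H3F against untagged cells it moved to 124% (−250 to 250 bp), 61.4% (−1000 to 1000 bp), 148% (downstream), 37.5% (upstream), 4.14% (equal totals) and 986% (flank subtracted), and the genes called to 2 (upstream, 1.05% of all rows) and 2 (equal totals, 1.32%). Narrower windows hold fewer reads. The cause of the other differences was not tested.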
